A study of Mus musculus with 12 samples.

Results

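This report describes 10 mouse genes, Nab1, Nab2, Egr1, Egr2, Egr3, Egr4, Fos, Fosb, Junb and Arc, out of 24060 genes counted in brain white matter of mice on a control or a high-fat diet. They were chosen by gene symbol with earlier results of these data known. In those results Nab2 was among the few genes called between the pulldowns of the 2 diets, and its pulldown over input ratio separated the diets. Those values of Nab2 are therefore given as a description, with no test. All 10 genes passed the filter on low counts, as did 14354 genes in all.

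The mice were males of genotype Tie2-Cre:Rpl22-HA (RiboTag), in which the Tie2 promoter drives Cre and Cre recombination puts an HA tag on the ribosomal protein Rpl22. Tie2 is active in endothelial cells and also in part of the blood lineage, so tagged ribosomes need not come from endothelium alone. Both diet groups carried the same alleles, and the sources used here give an age for other mice on these diets but not for these RiboTag mice. The control fat diet (CFD) held 10% and the high-fat diet (HFD) 60% of its energy as fat. From each of 3 CFD mice (489, 555, 556) and 3 HFD mice (516, 517, 676) there was 1 library of RNA bound to HA-precipitated ribosomes (IP) and 1 of whole white matter RNA (input), which gave 12 libraries in 4 groups of 3.

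EGR proteins are zinc finger transcription factors whose genes are switched on within minutes of a stimulus, without new protein synthesis. Genes with this behaviour are called immediate early genes. Fos, Fosb and Junb encode subunits of the AP-1 transcription factor, and Arc encodes a protein that acts at synapses. The NAB proteins bind EGR factors as corepressors and recruit the NuRD chromatin remodelling complex, and EGR factors in turn can switch on NAB genes. In the brain, Egr1, Fos and Arc are widely used as marks of recent neuronal activity.

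The promoters of both corepressor genes and of 2 AP-1 genes are shown with sites for EGR and for the CREB family. These are only some of the elements that act on genes of this group. Sites of other factors, such as the serum response factor, are not marked. Each line holds the 250 bases before a listed start of transcription, 5′ to 3′ on the strand of the gene, from RefSeq on GRCm38.p6. For Nab1 and Fosb this start lies inside the annotated gene, whose outer start is at 52500712 for Nab1 and 19310118 for Fosb. The whole Nab1 line and the part of the Fosb line that holds its marked sites therefore lie within the gene. Capitals mark the EGR site spelled GCGTGGGCG or GCGGGGGCG and the core of the cAMP response element, TGACG, on either strand. No marked stretches overlap each other in these windows. Nab1 lies at chr1:52500449-52500698 on the minus strand, Nab2 at chr10:127666704-127666953 on the minus strand, Fos at chr12:85473640-85473889 on the plus strand and Fosb at chr7:19310046-19310295 on the minus strand.
Nab1: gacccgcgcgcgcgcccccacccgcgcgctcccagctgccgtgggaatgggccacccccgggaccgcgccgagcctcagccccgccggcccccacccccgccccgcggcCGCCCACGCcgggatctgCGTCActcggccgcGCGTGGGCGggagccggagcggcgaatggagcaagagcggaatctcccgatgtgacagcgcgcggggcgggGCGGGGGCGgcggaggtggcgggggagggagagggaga
Nab2: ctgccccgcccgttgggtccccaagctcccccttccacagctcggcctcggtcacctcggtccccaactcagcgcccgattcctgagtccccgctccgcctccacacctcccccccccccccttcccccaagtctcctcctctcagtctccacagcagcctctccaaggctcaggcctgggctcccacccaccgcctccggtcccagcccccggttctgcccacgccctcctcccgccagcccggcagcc
Fos: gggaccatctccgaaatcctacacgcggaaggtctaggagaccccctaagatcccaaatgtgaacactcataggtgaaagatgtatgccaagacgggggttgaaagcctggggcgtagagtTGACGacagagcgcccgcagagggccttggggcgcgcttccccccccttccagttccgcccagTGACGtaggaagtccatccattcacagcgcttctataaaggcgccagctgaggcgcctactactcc
Fosb: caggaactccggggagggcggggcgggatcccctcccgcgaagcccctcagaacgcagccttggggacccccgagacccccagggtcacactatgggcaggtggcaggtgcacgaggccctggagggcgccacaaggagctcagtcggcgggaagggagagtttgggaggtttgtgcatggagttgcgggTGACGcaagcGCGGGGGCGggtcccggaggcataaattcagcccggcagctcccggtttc

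The Nab1 window held 2 matches to GCGTGGGCG, 1 match to GCGGGGGCG and 1 to TGACG. The Nab2 window held none of these letters. The Fos window held 2 matches to TGACG, and the Fosb window held 1 match each to TGACG and GCGGGGGCG. In the same 250 bases before the start, of 32851 promoter windows in the RefSeq table, 0.536% held GCGTGGGCG, 2.57% held GCGGGGGCG and 17.8% held TGACG. A promoter window was present for 7 of the 10 genes, the others being Egr2, Egr4 and Junb. Their windows are not shown and held neither spelling of the EGR site. The Egr4 window held 2 matches to TGACG, the Junb window 1, and those of Egr2 held 0 or 2, depending on the start. The matches are a description of letters and were not set against any binding data.

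Each library held between 19567186 and 33660708 counts, and the lowest count of any of the 10 genes in any library was 16. The 45S ribosomal RNA precursor Rn45s took 38.7 to 42.3% of counts in CFD IP, 17.1 to 19.1% in HFD IP, 8.6 to 14.2% in CFD input and 6.34 to 9.29% in HFD input, so the pulldowns of the diets differed in composition. Its part in the results below was not tested. The counts of calls among the 10 genes stayed the same without Rn45s and Lars2. The only such call was that of Nab2, which was chosen on it, so nothing is read from this. Removing these 2 genes also leaves any other difference in composition in place. The input library of animal 676 held 133 counts of Xist, a transcript of female cells, against at most 7 in any other library, although the mice were described as males. What this library holds was not tested, and it bears on every input value and ratio of animal 676. Without animal 676 the log2 fold change of HFD input against CFD input was -1.25 for Arc, -0.51 for Egr1, -1.51 for Egr4, -1.26 for Fosb and -0.09 for Nab2. Levels are given as CPM, the count of a gene relative to the TMM-scaled total count of its library in the usual unit, and levels of different genes are compared only as CPM per kilobase of gene length.

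The endothelial identity of the pulldown was not borne out by its defining markers. The 16 endothelial markers, 13 of them tested, summed to 6.47 to 213 CPM in CFD IP and 11.97 to 72.7 in HFD IP. In input they summed to 15.6 to 44.6 CPM on CFD and 14.9 to 50.1 CPM on HFD. The 213 CPM of CFD IP came from animal 556 alone, with 7.18 and 6.47 CPM in animals 489 and 555. Cldn5, a tight junction gene of brain endothelium, was at 0 in 4 of the 6 IP libraries, and Tek, the gene of Tie2 itself, was at 0 in 3. Of the other defining endothelial genes, Pecam1 was at 0 in 1 IP library and Cdh5 in 0, with at most 6.33 and 2.63 CPM in any of the 12 libraries. The 12 neuronal markers, all tested, summed to 13452 to 16199 CPM in CFD IP, 14760 to 17711 in HFD IP, 12853 to 18491 in CFD input and 11979 to 14327 in HFD input, and Snap25, Syt1 and Rbfox3 were at 0 in no library. The oligodendrocyte list reached at most 7368 CPM. Sums of different lists depend on the number, length and level of their genes, so they are not ranked against each other. In such bulk samples fewer cells of a type and less RNA per cell cannot be told apart.

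**Figure D1:**
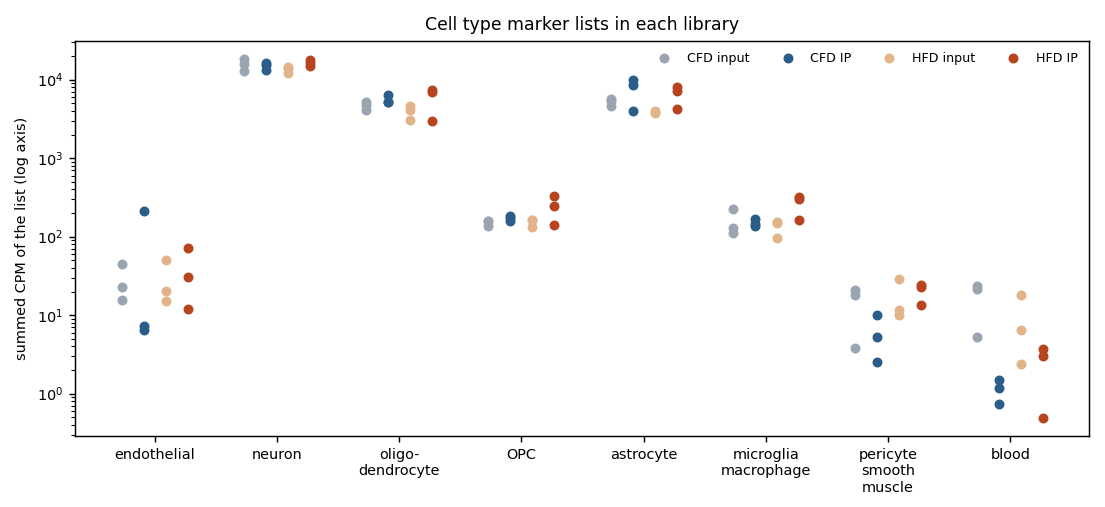
Summed CPM of 8 fixed cell type marker lists (log axis) in each of the 12 libraries, with 1 point per library coloured by group. The neuronal sums lie between 11979 and 18491 CPM. The endothelial sums lie between 6.47 and 213 CPM in the pulldowns and between 14.9 and 50.1 CPM in the inputs. The value of 213 CPM is that of the CFD IP library of animal 556 alone.

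Per kilobase, Egr1 was the highest of the 10 genes in every group, at 199 ± 63.8 CPM per kilobase in CFD IP, 201 ± 41.5 in CFD input, 121 ± 25.9 in HFD IP and 121 ± 50.1 in HFD input (SD, n = 3 each). Its libraries did not overlap those of the gene next in order in any group. Arc came next in CFD IP, CFD input and HFD IP, and Egr3 in HFD input. Nab2 held rank 3 in CFD IP at 75.1 ± 25.0 CPM per kilobase, where its libraries overlapped those of Arc and Egr3, and rank 4 in CFD input, HFD input and HFD IP, at 23.3 ± 8.28, 23.0 ± 2.67 and 15.2 ± 3.62. The others, Nab1, Egr2, Egr4, Fos, Fosb and Junb, had mean levels between 1.73 and 15.6 CPM per kilobase, and most neighbours among them overlapped. Junb and Egr2 were lowest in CFD IP, Fos in HFD IP, Junb in CFD input and Egr2 in HFD input.

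**Figure D2:**
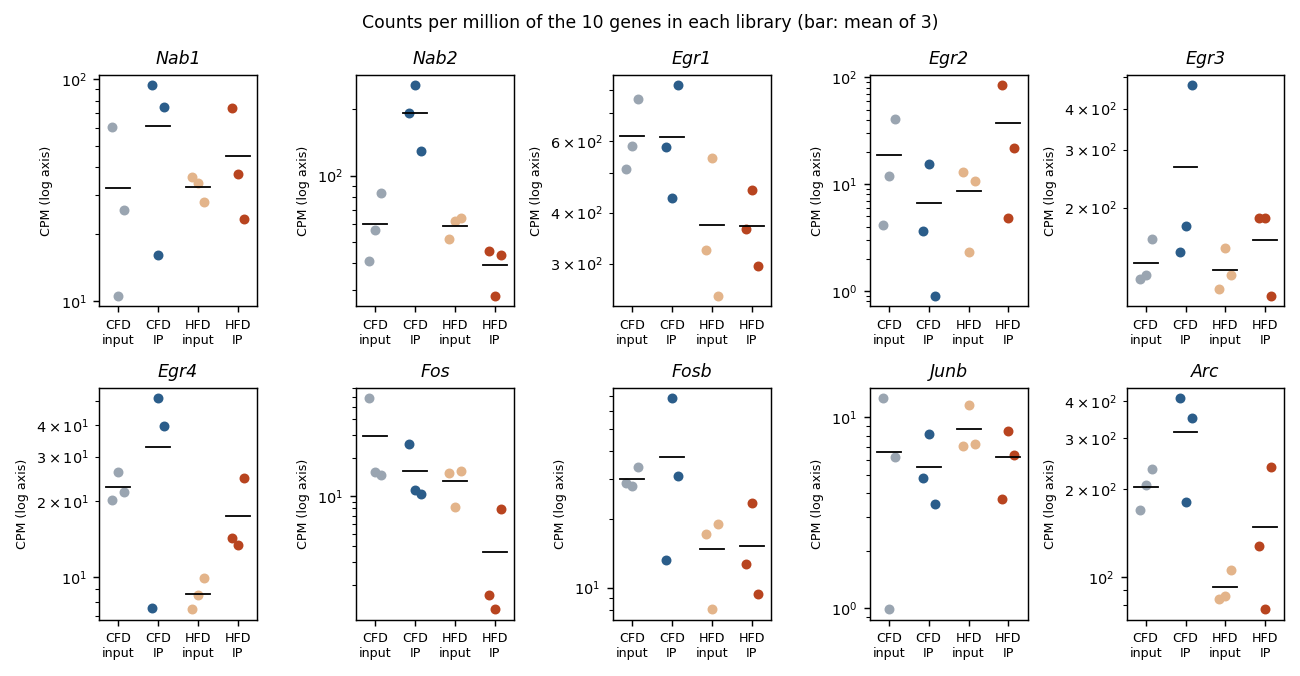
CPM (log axes, with a different range for each gene) of the 10 genes in each library, grouped by diet and fraction. Points are single libraries and bars are means of 3. The 3 CFD IP libraries of Nab2 (129 to 258 CPM) lie above all 9 others, and the 3 HFD input libraries of Arc (84.4 to 106 CPM) lie below its 3 CFD input libraries.

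Of the corepressors, Nab2 had 193, 258 and 129 CPM in the CFD IP libraries of animals 489, 555 and 556, and 45.4, 28.4 and 43.4 CPM in the HFD IP libraries of animals 516, 517 and 676. In input it had 40.7, 56.8 and 82.9 CPM on CFD and 51.4, 61.8 and 64.4 CPM on HFD. The CFD IP libraries were thus above every other library, and the HFD IP libraries were below every HFD input library. The fitted level in HFD IP was 4.95-fold lower than in CFD IP, a log2 fold change of -2.31 (SE 0.43). In CFD mice the IP exceeded the input by 1.69 (SE 0.42) on the log2 scale, and in HFD mice the IP differed from the input by -0.60 (SE 0.41). The difference between these differences was -2.29 (SE 0.59).

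The diet comparison of the inputs was not itself a basis for the choice of Nab2. The IP over input ratio was, however, and it is built from these same input libraries. This comparison is therefore not independent of the choice. Between the inputs the log2 fold change was -0.02 (SE 0.41, edgeR adjusted p = 0.999975), and the libraries of the diets overlapped. Its sign depended on the setting, with a log2 fold change of 1.26e-05 under an animal block and values from -0.25 to 0.28 when 1 animal was left out.

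In each animal, the log2 ratio of IP over input of Nab2 was 2.24, 2.18 and 0.64 in CFD mice 489, 555 and 556. In HFD mice 516, 517 and 676 it was -0.18, -1.12 and -0.57. All 3 CFD ratios were above 0 and all 3 HFD ratios below, and the means were 1.69 ± 0.91 and -0.62 ± 0.47 (SD, n = 3 each). Among the 10 genes no other one had ratios above 0 in all mice of one diet and below 0 in all mice of the other. Of the 14354 genes tested, 175 (1.22%) had ratios above 0 in all CFD and below 0 in all HFD mice, and 176 (1.23%) had the opposite pattern.

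Nab1 had 93.9, 16.1 and 74.8 CPM in CFD IP, 61.0, 10.6 and 25.8 in CFD input, 74.4, 37.4 and 23.4 in HFD IP and 36.1, 34.2 and 27.9 in HFD input, in the same order of animals. Animal 555 was lowest in both of its fractions, and all 4 groups overlapped. Its IP over input ratio was above 0 in 5 of 6 animals. Over the 12 libraries the log2 CPM of Nab1 and Nab2 had a Pearson correlation of 0.03, given as a description of libraries that pair by animal.

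**Figure D3:**
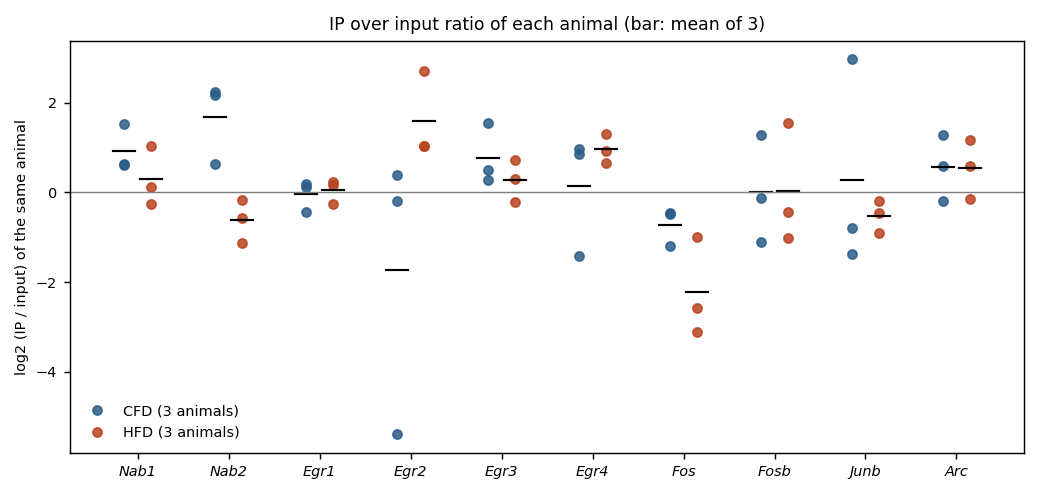
Log2 ratio of IP over input of the same animal for each of the 10 genes, with CFD mice in blue, HFD mice in red and bars at the mean of 3. Nab2 is above 0 in all 3 CFD mice and below 0 in all 3 HFD mice, and Fos is below 0 in all 6 mice.

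Neighbouring genes could share reads with Nab2, since strand use in the counting was not given in the sources used here. Nab2 (chr10:127660918-127666703, minus strand, 7 exons) and Stat6 on the plus strand overlap by 70 bases in GRCm38.p6, within exons of both genes and outside both coding sequences. Stat6 had at most 7.54 CPM in any library, and 0.0483 to 2.19 CPM in CFD IP. The lncRNA 1700012D01Rik starts 419 bases from Nab2 and had 0 counts in all 3 CFD IP libraries. Egr2 overlaps the antisense lncRNA Gm32255 by 1712 bases, and Gm32994 lies 442 bases from Arc.

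In the comparison of HFD IP with CFD IP, which asks how the diet changed ribosome-bound RNA, 1 of the 10 genes was called at adjusted p under 0.1, namely Nab2, against 0.0557% of 14354 genes. Nothing is read from that count, since Nab2 was chosen on this contrast. It was not called without animal 516, 517, 555 or 676, when its log2 fold change was between -2.45 and -2.04. At an unadjusted p under 0.05 there were 5 of the 10 genes, Nab2, Egr1, Egr2, Fos and Arc, against 10.9% of all genes. By DESeq2 1 of the 10 was called, again Nab2, from which nothing is read, against 7.07% of all genes. The groups did not overlap for Nab2 and Fos, against 10.6% of all genes. The fitted change was downward for 8 of the 10, with a median of -0.82 on the log2 scale against 0.03 for all genes. Nab2 is part of each of these values, so they are a description and no test of the 10 genes as a set. Beside these values, the pericyte and smooth muscle list of 8 genes, 5 of them tested, summed to 2.56 to 10.1 CPM in CFD IP and 13.3 to 24.1 CPM in HFD IP, without overlap, and its part in the results was not tested.

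Fos had 25.3, 11.1 and 10.3 CPM in CFD IP and 1.66, 1.29 and 7.95 CPM in HFD IP. The groups did not overlap, and the log2 fold change was -2.10 (SE 1.002, edgeR adjusted p = 0.452). Arc had 409, 181 and 351 CPM in CFD IP and 127, 77.6 and 239 CPM in HFD IP. The groups overlapped through animals 555 and 676, and the log2 fold change was -1.08 (SE 0.39, edgeR adjusted p = 0.361). Neither difference passed the test across all genes.

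Among the EGR factors, Egr1 had 579, 433 and 822 CPM in CFD IP and 364, 455 and 296 CPM in HFD IP, and the groups overlapped through animals 555 and 517. Its log2 fold change was -0.72 (SE 0.32, edgeR adjusted p = 0.420). Egr2, known for its part in myelination by Schwann cells, had 3.62, 15.5 and 0.896 CPM in CFD IP and 84.8, 4.79 and 21.9 CPM in HFD IP. Animal 516 held 76.1% of the summed Egr2 level of HFD IP, and animal 555 held 77.5% of that of CFD IP. The log2 fold change of Egr2 was 2.47 (SE 1.18, edgeR adjusted p = 0.452), and 0.97 without animal 516.

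Egr3 had 147, 176 and 471 CPM in CFD IP and 186, 185 and 108 CPM in HFD IP, with animal 556 far above the rest. Its log2 fold change was -0.73 (SE 0.40, edgeR adjusted p = 0.4995), and -0.01 at the nearest to 0 when 1 animal was left out. Egr4 had 7.55, 51.0 and 39.7 CPM in CFD IP and 14.2, 13.4 and 24.6 CPM in HFD IP, and Fosb had 13.2, 68.0 and 31.0 CPM against 12.8, 23.5 and 9.35 CPM. In both genes animal 489 was the lowest of the CFD IP libraries and kept the groups from separating. Their log2 fold changes were -0.91 (SE 0.80) and -1.30 (SE 0.76), with edgeR adjusted p of 0.680 and 0.520. For Nab1 the log2 fold change was -0.45 (SE 0.68, edgeR adjusted p = 0.839). Junb, at 4.81, 8.21 and 3.53 CPM in CFD IP and 3.71, 8.45 and 6.33 CPM in HFD IP, had a log2 fold change of 0.16 (SE 1.26, edgeR adjusted p = 0.980), which turned to -0.14 without animal 517 and -0.08 without animal 556.

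In the comparison of HFD input with CFD input, which asks for a diet difference in whole white matter, none of the 10 genes was called by edgeR, against 0% of all genes. At an unadjusted p under 0.05 there were 2 of the 10, Arc and Egr1, against 2.03% of all genes. DESeq2 called none of the 10, against 0.223% of all genes. The groups did not overlap for Arc, Egr4 and Fosb, against 10.4% of all genes. The fitted change was downward for 8 of 10, with a median of -0.88 against -0.004 for all genes. Leaving out 1 animal turned the sign of Nab1, Nab2, Egr2, Egr3 or Junb, while Egr1, Egr4, Fos, Fosb and Arc stayed lower in HFD input in all 6 such fits.

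Arc had 169, 206 and 234 CPM in CFD input and 84.4, 86.1 and 106 CPM in HFD input. Every HFD input library was below every CFD input library, with a log2 fold change of -1.14 (SE 0.39, edgeR adjusted p = 0.999975), and its unadjusted p had rank 15 among 14354 genes. Egr4 had 20.2, 26.1 and 21.8 CPM in CFD input and 7.47, 8.47 and 9.91 CPM in HFD input, a log2 fold change of -1.40 (SE 0.81). Fosb had 28.7, 27.8 and 33.9 CPM against 17.2, 8.03 and 19.0 CPM, a log2 fold change of -1.03 (SE 0.75). In these 3 genes the libraries of the diets were apart, yet no edgeR adjusted p was below 0.999975.

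Egr1 had 511, 583 and 759 CPM in CFD input and 323, 545 and 250 CPM in HFD input, and animal 517 lay within the CFD range. Its log2 fold change was -0.73 (SE 0.32, edgeR adjusted p = 0.999975). Fos had 58.3, 15.3 and 14.5 CPM against 15.1, 8.10 and 15.8 CPM, so that only animal 489 stood above the HFD libraries. Its log2 fold change was -1.18 (SE 0.97, edgeR adjusted p = 0.999975), and -0.22 at the nearest to 0 when 1 animal was left out. The others overlapped between diets. Egr3 had 121, 125 and 160 CPM against 113, 151 and 125 CPM, Egr2 had 4.16, 11.9 and 40.6 CPM against 13.0, 2.32 and 10.7 CPM, and Junb had 12.6, 0.987 and 6.16 CPM against 7.03, 11.7 and 7.25 CPM. Beside these values, the astrocyte list of 8 genes summed to 4577 to 5614 CPM in CFD input and 3783 to 3981 CPM in HFD input, without overlap, and the part of this difference in the results was not tested. The neuronal sums were 12853, 18491 and 16038 CPM in CFD input and 14327, 14010 and 11979 CPM in HFD input. They overlapped through animal 489, the lowest of the CFD input libraries, and their part in the results was not tested.

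**Figure D4:**
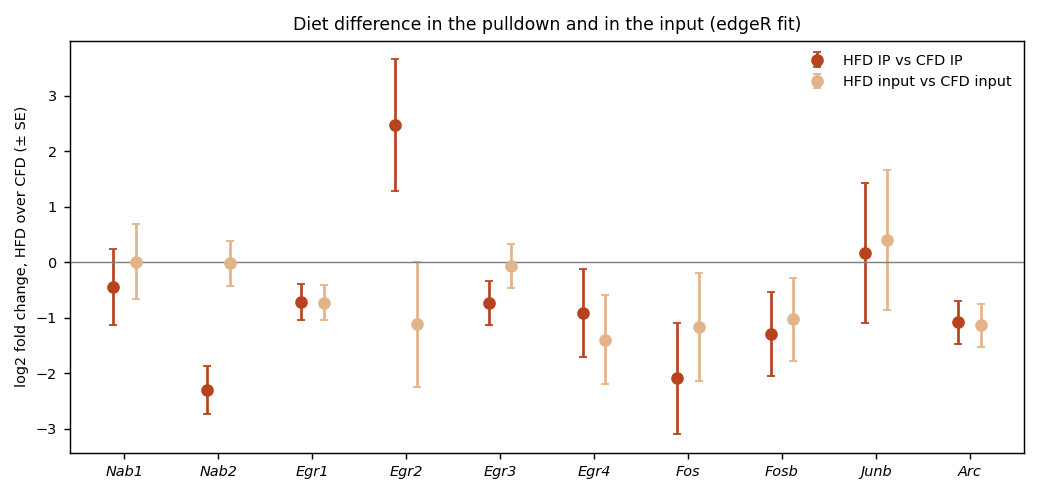
Log2 fold change of HFD over CFD (± SE, edgeR fit) for each of the 10 genes in the pulldown and in the input. Nab2 is at -2.31 in the pulldown and -0.02 in the input, while Arc and Egr1 have like values in both fractions (-1.08 and -1.14 for Arc, -0.72 and -0.73 for Egr1).

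In CFD IP against CFD input, which asks what the pulldown enriched, none of the 10 genes was called by edgeR, against 0.188% of all genes. At an unadjusted p under 0.05 there were 2 of the 10, Nab2 and Egr3, against 11.8% of all genes. DESeq2 called 1 of the 10, Nab2, against 7.13% of all genes. With an animal block edgeR called Nab2 too, but the share of all genes called in that setting was not taken. Nothing is read from these counts for Nab2, whose IP over input ratio was known when it was chosen. The groups did not overlap for Nab2, against 15.2% of all genes. Egr3 had a log2 fold change of 0.96 (SE 0.40, edgeR adjusted p = 0.357), and its IP over input ratio was above 0 in all 3 CFD mice, at 0.27, 0.49 and 1.55. The median over the 10 genes was 0.42 against -0.01 for all genes.

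In HFD IP against HFD input, none of the 10 genes was called by edgeR, against 0.0139% of all genes, and none had an unadjusted p under 0.05, against 6.51% of all genes. DESeq2 called none of the 10, against 0.729% of all genes. The groups did not overlap for Nab2, Egr4 and Fos, against 14.1% of all genes. Fos had a log2 fold change of -1.84 (SE 0.99, edgeR adjusted p = 0.809), and Egr4 one of 1.02 (SE 0.80, edgeR adjusted p = 0.923). The IP over input ratio of Fos was -1.201, -0.46 and -0.49 in CFD mice and -3.12, -2.59 and -0.98 in HFD mice, below 0 in 6 of 6. Egr1, in contrast, had ratios between -0.43 and 0.24 in all 6 mice, and those of Arc lay between -0.19 and 1.27. The median over the 10 genes was 0.17 against -0.01 for all genes.

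The difference between the diets in the IP over input ratio was called for none of the 10 genes by edgeR, against 0% of all genes. At an unadjusted p under 0.05 there were 2, Nab2 and Egr2, against 5.36% of all genes. DESeq2 called 1, Nab2, against 1.17% of all genes. Nab2 was chosen on this difference, so nothing is read from its place in these counts. The ratios did not overlap between diets for Nab2 and Egr2, against 9.89% of all genes. Egr2 had ratios of -0.20, 0.39 and -5.39 in CFD mice and 2.70, 1.02 and 1.03 in HFD mice, where the value of -5.39 came from animal 556 with 16 counts in the IP library. The test of the difference gave 3.60 (SE 1.63, edgeR adjusted p = 0.896). This comparison uses the same libraries as the diet and fraction comparisons, so their values are not independent of each other.

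Levels of the 10 genes moved together to different extents, which is given as a description over libraries that share animals and depth. The 12 libraries, and each set of 6, also pool both diets, so any diet difference is part of each value. Between the inputs the libraries of Egr4, Fosb and Arc were apart by diet, and no correlation was taken within a diet. In the 6 inputs the log2 CPM of Egr4 and Arc had a Pearson correlation of 0.97, and Fosb and Arc one of 0.85. In the 6 IP libraries the values were 0.07 and -0.11. Fos and Arc had 0.92 in the IP libraries and 0.38 in the inputs, and Egr1 and Egr3 had 0.82 and 0.67. Other pairs ran in opposite directions, with -0.87 for Egr1 and Egr2 in the IP libraries and 0.14 in the inputs. Nab1 and Junb had -0.81 in the IP libraries and 0.94 in the inputs. Nab2 was most like Arc among the other 9 genes over the 12 libraries, at 0.60, which ranked 403 among 14353 genes. The 5 genes most like Nab2 were Rnaseh2c (0.91), St6galnac6 (0.89), Xbp1 (0.87), Gm10789 (0.87) and Nrbp2 (0.87). Xbp1, a transcription factor of the unfolded protein response, had 80.1, 101 and 38.4 CPM in CFD IP and 13.5, 13.6 and 38.8 CPM in HFD IP, so that its groups overlapped. The other 4 genes most like Nab2 had groups that did not overlap in HFD IP against CFD IP, against 10.6% of all genes. These genes were picked for their likeness to Nab2 over the same libraries, so nothing is read from a shared pattern. Gm10789 had only 5 to 55 counts in CFD IP and 0 in HFD IP. Rnaseh2c, a subunit of ribonuclease H2, also had IP over input ratios on opposite sides of 0, at 3.21, 4.82 and 1.52 in CFD mice and -1.52, -0.71 and -0.92 in HFD mice.

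Other genes of the pathway were counted from fixed lists. Of 35 further immediate early genes 34 were tested, and none was called by edgeR in any of the 5 comparisons. At an unadjusted p under 0.05 there were 2 in HFD IP against CFD IP, 3 in CFD IP against CFD input, 2 in HFD IP against HFD input, 0 between the inputs and 1 in the difference of the ratios, against 10.9%, 11.8%, 6.51%, 2.03% and 5.36% of all genes. DESeq2 called 1 in HFD IP against CFD IP, 2 in CFD IP against CFD input and 0 in the others, against 7.07%, 7.13%, 0.729%, 0.223% and 1.17% of all genes in the same order. In HFD IP against CFD IP 12 of them were fitted higher and 22 lower, with a median of -0.22, and those with the smallest p were Jun (1.18, SE 0.52, edgeR adjusted p = 0.408), Ier2 (5.63, SE 2.55, at no more than 2.16 CPM in these libraries) and Nr4a3 (-0.96, SE 0.51). Jun, a partner of Fos in AP-1, had 50.9, 73.1 and 44.2 CPM in CFD IP and 242, 65.8 and 73.1 CPM in HFD IP, where animal 516 stood apart. In HFD input against CFD input 7 were fitted higher and 27 lower, with a median of -0.45 against -0.004 for all genes, and none had an unadjusted p under 0.05. The groups did not overlap for 7 of the 34, against 10.4% of all genes. Those with the smallest p were Trib1 (-1.38, SE 0.73), Ier2 (4.17, SE 2.32, at no more than 6.30 CPM in these libraries) and Nr4a1. Trib1 was lower and Ier2 higher in every HFD input library than in every CFD input library. Nr4a1, an orphan nuclear receptor gene, had 75.6, 69.4 and 81.4 CPM in CFD input and 32.1, 43.0 and 51.1 CPM in HFD input, without overlap (log2 fold change -0.84, SE 0.49, edgeR adjusted p = 0.999975).

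Of 22 kinases and transcription factors upstream of these genes, all tested, none was called by edgeR in any comparison. In the same order of comparisons 3, 4, 3, 0 and 0 had an unadjusted p under 0.05, against 10.9%, 11.8%, 6.51%, 2.03% and 5.36% of all genes. DESeq2 called 2, 2, 0, 0 and 0, against 7.07%, 7.13%, 0.729%, 0.223% and 1.17%. In HFD IP against CFD IP 6 were fitted higher and 16 lower, with Map2k2 (MEK2) at -1.40 (SE 0.61, edgeR adjusted p = 0.404), Elk3 at -2.62 (SE 1.202) and Atf1 at 1.80 (SE 0.86). In HFD IP against HFD input the smallest p was that of Srf, the serum response factor, at 2.02 (SE 0.63, edgeR adjusted p = 0.578). Srf had 282, 112 and 46.8 CPM in HFD IP and 57.6, 21.1 and 30.1 CPM in HFD input.

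Of 13 NAB partners and NuRD subunits, all tested, none was called by edgeR in any comparison. In that order 3, 2, 1, 0 and 0 had an unadjusted p under 0.05, against 10.9%, 11.8%, 6.51%, 2.03% and 5.36% of all genes. DESeq2 called 2, 1, 0, 0 and 0, against 7.07%, 7.13%, 0.729%, 0.223% and 1.17%. Chd3, a remodelling ATPase of NuRD, had 823, 682 and 912 CPM in CFD IP and 509, 452 and 322 CPM in HFD IP, without overlap. Its log2 fold change was -0.91 (SE 0.27, edgeR adjusted p = 0.314), and in CFD IP against CFD input it was 1.03 (SE 0.27, edgeR adjusted p = 0.151). Mbd2 had 46.6, 100.3 and 40.3 CPM in CFD IP and 14.8, 20.4 and 20.3 CPM in HFD IP, also without overlap (log2 fold change -1.75, SE 0.58, edgeR adjusted p = 0.335). Gatad2b went the other way, with 86.7, 131 and 97.4 CPM in CFD IP and 256, 167 and 159 CPM in HFD IP, without overlap. Its log2 fold change was 0.89 (SE 0.36, edgeR adjusted p = 0.394). The groups did not overlap for 4 of the 13 genes, against 10.6% of all genes. Over the list 6 were fitted higher and 7 lower in HFD IP against CFD IP, with a median of -0.35.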

How the data were processed

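RNA of 12 libraries was sequenced as paired-end reads. The authors aligned the reads to mm10 with STAR, and HTSeq is named in the submitters' processing notes, with no versions and no statement on strand. The kit named for library preparation differs between the labels (NuGEN) and the published methods (TruSeq). The deposited table holds raw counts per gene, used for every level and test, and FPKM values of the authors, used only to recover the gene lengths. Columns holding the authors' own fold changes and p-values were not used.

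The 10 genes and the gene lists were chosen with earlier results of these data known. Group labels came from the sample titles. The counts of genes with at least 10 counts in enough libraries and 15 in total (14354 of 24060) were fitted with edgeR 4.0.16 (R 4.3.3, TMM scaling, quasi-likelihood test, 4 group means). Calls were made at a Benjamini-Hochberg adjusted p under 0.1, the threshold of the study. CPM used TMM-scaled library sizes, and per-animal ratios and correlations used log2 CPM with a prior count of 2. Totals were 19567186 to 33660708 counts, and the common biological coefficient of variation was 101%. Alternatives were RLE scaling, no filter, DESeq2 1.42.0, removal of Rn45s and Lars2, an animal block (limma 3.58.1 for contrasts between animals) and leaving out each animal. IP and input of 1 number came from the same animal, and deviations from the group means correlated by 0.00641 to 0.19 within animals (median 0.0351, n = 6) and by a median of -0.0178 between animals. No libraries agreed within sampling noise. The genes named are the 10, up to 3 per list and comparison with the smallest p, the 5 most like Nab2, neighbours within 1000 bases and Rn45s. Xist and Lars2 were named after their values were seen. The fitting script was tested on simulated data.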

Additional observations from a re-analysis of the deposited data

Results flagged for a closer look

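The log2 IP over input ratio of Nab2 was above 0 in all 3 CFD mice (2.24, 2.18 and 0.64) and below 0 in all 3 HFD mice (-0.18, -1.12 and -0.57). It stands out because every animal of one diet lay on the opposite side of 0 from every animal of the other. The HFD mean minus the CFD mean was -2.31 on the log2 scale. Over all 14354 genes tested, 175 (1.22%) had the same pattern, Rnaseh2c among them, and 176 (1.23%) had the opposite one. Nab2 was chosen on this pattern, so the difference is given without a test.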

How the results depend on the processing

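The count of the 10 genes called in HFD IP against CFD IP was 1 in each setting that kept all animals, and 0 to 1 when 1 animal was left out, with 0 without animals 516, 517, 555 and 676. In CFD IP against CFD input the count rose from 0 to 1 (Nab2) with no filter, with DESeq2 and with the animal as a replicate block. In the interaction it rose from 0 to 1 (Nab2) with DESeq2. The share of all genes called was taken only for the main edgeR fit and for DESeq2. Nothing is read from the counts of the other settings. The replicate block changed no other call.

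Fold changes near 0 turned their sign. Egr1 in CFD IP against CFD input went to 0.00694 with RLE scaling and 0.00689 with DESeq2, and in the interaction to -0.0146, -0.0145 and -0.0166 with RLE scaling, DESeq2 and without Rn45s and Lars2. With the replicate block, Junb went to 0.0904 in CFD IP against CFD input, Egr1 to 0.0499 in HFD IP against HFD input, Nab2 to 1.26e-05 in HFD input against CFD input and Arc to -0.0175 in the interaction. The cause was not tested.

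Leaving out 1 animal turned signs within these ranges of log2 fold change. In HFD IP against CFD IP, Junb ran from -0.14 to 0.57. In CFD IP against CFD input, Egr1 ran from -0.12 to 0.16, Egr2 from -3.30 to 0.25, Fosb from -0.48 to 0.68 and Junb from -1.16 to 0.71. In HFD IP against HFD input, Nab1 ran from -0.0492 to 0.67, Egr1 from -0.11 to 0.20 and Fosb from -0.71 to 0.52. In HFD input against CFD input, Nab1 ran from -0.40 to 0.83, Nab2 from -0.25 to 0.28, Egr2 from -1.62 to 0.10, Egr3 from -0.19 to 0.0674 and Junb from -0.11 to 1.26. In the interaction, Egr1 ran from -0.16 to 0.22, Fosb from -1.02 to 0.53, Junb from -1.21 to 0.68 and Arc from -0.36 to 0.40. With 3 animals per diet, 1 animal decides such values, and the replicates measure the spread between these animals only.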
